A study of Mus musculus with 6 samples.

Results

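The genes described here are 9 that encode enzymes of the tricarboxylic acid cycle, Cs, Idh3a, Idh3g, Ogdh, Dlst, Suclg1, Suclg2, Fh1 and Mdh2. They were taken by symbol from a table of 16140 genes, and all 9 were found and had enough reads to be tested. The table came from bulk RNA-seq of mouse liver, with 3 control and 3 knockout libraries made from poly(A)-selected RNA. Controls had the genotype Selofl/fl, in which Selenoo is floxed (it encodes SelO, a selenoprotein of mitochondria). Knockouts had the genotype Selofl/fl Alb-Cre, in which the albumin promoter drives Cre in hepatocytes. Whether other liver cells keep the gene was not tested. Per the labels, both groups share the floxed alleles and a normal diet, but only the knockouts carry Cre. Effects of the recombinase and of the deletion therefore cannot be told apart. The deposited column headers call the controls WT, and the genotype in the labels was followed here. Age and sex are not given in the labels, and nothing there says that the libraries come from separate animals. The p-values then measure only how these libraries vary, which may be technical. The question was how hepatocyte loss of SelO changes liver transcripts, here those of the cycle.

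The tricarboxylic acid cycle runs in the mitochondrial matrix, where it oxidizes the acetyl group of acetyl-CoA to carbon dioxide and passes electrons to the respiratory chain as NADH and as reduced ubiquinone. In the liver it also supplies precursors, since malate and oxaloacetate leave for glucose synthesis and citrate for lipid synthesis. The enzymes described act in this order: citrate synthase, isocitrate dehydrogenase, the oxoglutarate dehydrogenase complex, succinyl-CoA synthetase, succinate dehydrogenase, fumarase and malate dehydrogenase. Several are built from subunits of separate genes, and succinyl-CoA synthetase exists in a GTP-forming and an ATP-forming version that differ in a single subunit.

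Depth was similar across libraries, with 15550287 to 18680196 estimated reads each, and 12173 genes were tested. As a check of the labels, control libraries held 1413, 1630 and 1852 Selenoo reads, whereas knockout libraries held 117, 163 and 135. In knockout against control, 1.49% of all tested genes were called (edgeR quasi-likelihood test, adjusted p under 0.05), 18.5% had an unadjusted p under 0.05, and 25.2% had groups whose CPM (counts scaled to library size) did not overlap. Hepatocyte markers summed to between 149504 and 189531 CPM in controls and between 167803 and 193945 CPM in knockouts. All 10 were detected in every library, 7 had a positive fold change and 1 was called higher. All 10 Kupffer cell markers had a negative fold change, and their sum was 523 to 761 CPM in controls and 470 to 535 CPM in knockouts. The 7 tested lymphocyte markers summed to 16.97 to 21.54 CPM in controls and 9.26 to 12.9 CPM in knockouts. Of 8 endothelial markers, 7 had a negative fold change and 1 was called lower. Their sum was 336 to 361 CPM in controls and 284 to 343 CPM in knockouts. Stellate markers were mixed, 5 positive and 4 negative, with sums of 275 to 343 and 262 to 337 CPM. All 5 tested erythroid markers were positive, but their sums ran from 145 to 660 CPM in controls and 111 to 1264 CPM in knockouts. Of 5 tested cholangiocyte markers, 4 were negative, with sums of 19.1 to 53.3 and 30.1 to 41.6 CPM. The part of these cells in the results below was not tested. In bulk tissue, fewer cells of a type and less RNA per cell cannot be told apart.

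None of the 9 enzymes passed in edgeR, in either direction, and 1 of the 9 had an unadjusted p under 0.05. None passed in DESeq2 or limma-voom either, each with 2 of the 9 at an unadjusted p under 0.05. The fold change was positive for 8 enzymes and negative for Idh3g, with a median log2 value of 0.10, against -0.02 over all genes tested, of which 5822 had a positive value. The median of the 9 moved with single controls, to 0.19 without control replicate 1, 0.03 without control replicate 2 (6 positive) and 0.20 without control replicate 3. Among the 4500 tested genes at least as abundant as the least abundant of the 9, 56.9% were positive, with a median of 0.05. The 95% intervals (each for its gene alone) ran from 0.764-fold at the lowest bound to 1.68-fold at the highest, so a 2-fold change in either direction lay outside all 9 of them. In 4 of the 9, the libraries of the groups did not overlap. That count is to be set beside the 25.2% of all tested genes.

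**Figure D1:**
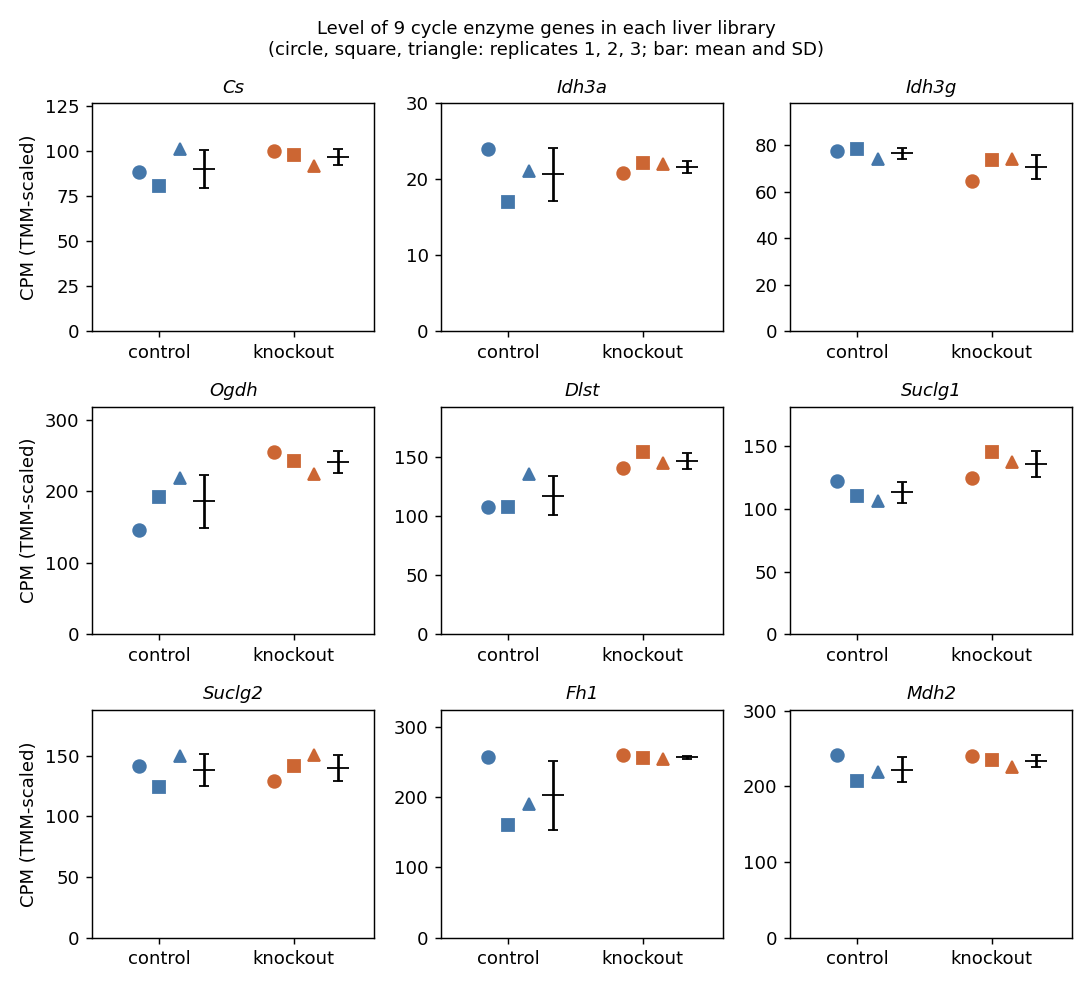
CPM of each of the 9 genes (vertical axes, linear from 0) in the 3 control (blue) and 3 knockout (orange) libraries, with symbols for replicates 1, 2 and 3 and a black bar for the mean and SD. Ogdh, Dlst and Suclg1 are higher in every knockout than in any control, while Fh1 has 1 control, at 256 CPM, among the knockouts.

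Promoter sequences are shown for 4 genes on which the comparisons below turn. Ogdh and Dlst encode parts of a single complex and were both higher in every knockout than in any control, and Suclg2 and Sucla2 encode the alternative subunits of succinyl-CoA synthetase, whose ratio is compared below. Sucla2 is a cycle gene outside the 9. Each window holds 250 bases before and 50 after an annotated start in RefSeq on GRCm38.p6, written 5′ to 3′ along the gene, in lower case with matches to any of 4 motifs in capitals. For Ogdh, which has several starts, the first window is shown.

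Ogdh (chr11:6291347-6291646, plus strand): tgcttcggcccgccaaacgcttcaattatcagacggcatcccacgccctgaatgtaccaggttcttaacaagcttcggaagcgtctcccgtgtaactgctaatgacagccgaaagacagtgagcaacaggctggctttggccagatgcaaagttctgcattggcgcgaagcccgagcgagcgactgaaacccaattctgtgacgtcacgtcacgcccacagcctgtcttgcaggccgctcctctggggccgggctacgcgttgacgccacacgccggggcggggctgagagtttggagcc

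Dlst (chr12:85110583-85110882, plus strand): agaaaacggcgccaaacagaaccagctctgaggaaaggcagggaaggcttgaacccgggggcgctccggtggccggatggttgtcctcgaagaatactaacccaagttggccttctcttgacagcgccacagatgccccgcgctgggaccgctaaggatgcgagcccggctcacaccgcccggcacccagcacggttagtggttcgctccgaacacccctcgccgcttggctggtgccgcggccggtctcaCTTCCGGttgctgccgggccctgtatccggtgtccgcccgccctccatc

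Suclg2 (chr6:95718797-95719096, minus strand): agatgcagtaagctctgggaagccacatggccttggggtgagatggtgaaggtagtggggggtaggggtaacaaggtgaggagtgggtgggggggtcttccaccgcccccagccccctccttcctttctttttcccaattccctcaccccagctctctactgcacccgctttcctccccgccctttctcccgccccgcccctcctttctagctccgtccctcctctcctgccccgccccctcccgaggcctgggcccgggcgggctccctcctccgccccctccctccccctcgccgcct

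Sucla2 (chr14:73552536-73552835, plus strand): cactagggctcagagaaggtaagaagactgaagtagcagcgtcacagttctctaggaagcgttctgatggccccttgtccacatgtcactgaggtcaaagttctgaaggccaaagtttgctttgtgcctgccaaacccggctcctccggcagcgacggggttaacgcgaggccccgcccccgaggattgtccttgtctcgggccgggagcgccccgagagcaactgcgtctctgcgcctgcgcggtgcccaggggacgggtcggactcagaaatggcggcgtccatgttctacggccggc

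These windows were rich in G and C, at 59.7% for Ogdh, 65.7% for Dlst, 67.7% for Suclg2 and 62.0% for Sucla2, against a median of 52.7% over all 32851 windows. Ogdh held 25, Dlst 28 and Sucla2 24 CpG dinucleotides, whereas Suclg2 held 13, and the median over all windows was 7. Motif letters were searched on both strands, and none of the motifs overlaps another in these windows. CCGGAAG, the core of the GABPA motif, was in the windows of Dlst, Idh3g, Idh3b, Sdhb and Sdhd, and in 8.86% of all windows. AAGGTCA, the core bound by estrogen-related receptors, was in another window of Ogdh and in that of Sdhd (4.72% of all windows), and GCATGCGC, from the NRF1 motif, in 2 other windows of Ogdh and in that of Sdhb (2.71%). AAGATGG, from the YY1 motif, was in the window of Idh3g (6.34% of all). No match stood in the windows of Suclg2 and Sucla2 or in the Ogdh window shown. Windows were found for 8 of the 9 enzymes and 14 of the 16 cycle genes compared.

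Cs (NCBI Gene 12974, chromosome 10, 128337727 to 128362482, plus strand, all positions in GRCm38) encodes citrate synthase, which joins acetyl-CoA to oxaloacetate and so opens the cycle. Its level was 88.3, 80.5 and 101 CPM in control libraries and 100.3, 97.7 and 91.8 CPM in the knockouts. The groups overlapped, with the highest and the lowest library both among the controls. The means were 90.0 ± 10.5 (SD, n = 3) and 96.6 ± 4.37 CPM (SD, n = 3). The log2 fold change was 0.10 ± 0.13 (SE), its interval 0.871-fold to 1.32-fold and its adjusted p 0.71 in edgeR. The log2 value for Cs was 0.03 without control replicate 2 and 0.20 without control replicate 3.

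Isocitrate dehydrogenase of the cycle, the NAD-dependent enzyme, is made of a catalytic subunit from Idh3a and regulatory subunits from Idh3b and Idh3g. Idh3a (NCBI Gene 67834, chromosome 9, 54586510 to 54604662, plus strand) was at 24.0, 17.04 and 21.0 CPM in controls and 20.8, 22.2 and 22.0 CPM in knockouts. The knockouts lay inside the range of the controls. The fitted log2 difference was 0.07 ± 0.15 (SE), its interval 0.831-fold to 1.32-fold and its adjusted p 0.831 in edgeR. Without control replicate 2, the lowest library, the log2 value was -0.06, and without control replicate 1 it was 0.19.

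Idh3g (NCBI Gene 15929, chromosome X, 73778963 to 73786897, minus strand) is the member with a negative fold change. Its level was 77.6, 78.5 and 74.1 CPM in controls and 64.8, 73.7 and 74.1 CPM in knockouts. The lowest control (74.074 CPM) and the highest knockout (74.060 CPM) almost met, and knockout replicate 1 stood lowest. The log2 fold change was -0.11 ± 0.12 (SE), its interval 0.764-fold to 1.12-fold and its adjusted p 0.636 in edgeR. The log2 value for Idh3g was -0.05 without knockout replicate 1 and -0.02 with trends on transcript length and GC content removed, a setting chosen after seeing the data. Idh3b, the other regulatory subunit, went from 153 ± 12.5 to 167 ± 10.9 CPM (SD, n = 3), with overlapping groups and a log2 fold change of 0.13 ± 0.13 (SE).

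Ogdh and Dlst encode the thiamine-dependent decarboxylase and the lipoate-bearing succinyltransferase core of the oxoglutarate dehydrogenase complex, which turns oxoglutarate into succinyl-CoA. Ogdh (NCBI Gene 18293, chromosome 11, 6291597 to 6359094, plus strand) was at 146, 192 and 219 CPM in control libraries and 255, 242 and 224 CPM in the knockouts. Every knockout lay above every control, by a narrow margin between knockout replicate 3 and control replicate 3, and control replicate 1 stood lowest. The mean went from 186 ± 37.0 to 241 ± 15.4 CPM (SD, n = 3), and the log2 fold change was 0.37 ± 0.17 (SE), the largest of the 9. Its interval reached from 0.995-fold to 1.68-fold, and its adjusted p was 0.278 in edgeR. Without control replicate 1 the log2 value was 0.23, and without control replicate 3 it was 0.51. Ogdh has the longest transcript of the 9 (4127 bases), and the departure of a library from the mean level followed transcript length in some libraries. The rank correlation with length over 11944 genes (Spearman's rho, a description) was -0.29, -0.22 and 0.27 in control replicates 1, 2 and 3 and 0.27, 0.0850 and 0.0879 in the knockouts. With GC content it was largest in control replicate 2 (0.23) and knockout replicate 3 (-0.21). With the trends on length and GC content removed, the log2 value of Ogdh was 0.33 (adjusted p = 0.182 in edgeR).

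Dlst (NCBI Gene 78920, chromosome 12, 85110822 to 85134091, plus strand) was at 108, 108 and 136 CPM in controls and 141, 154 and 145 CPM in knockouts. All 3 knockouts were above all 3 controls, and control replicate 3 lay closest to them. The mean was 118 ± 16.3 in controls and 147 ± 6.72 CPM in knockouts (SD, n = 3). The log2 fold change of 0.32 ± 0.14 (SE) had an unadjusted p of 0.0477, the smallest of the 9, and an adjusted p of 0.264 in edgeR. The interval was 1.00-fold to 1.56-fold. Dld, the lipoamide dehydrogenase that this complex shares with pyruvate dehydrogenase, was at 59.1 ± 4.38 and 58.2 ± 7.59 CPM (SD, n = 3), with a log2 fold change of -0.02 ± 0.14 (SE).

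Succinyl-CoA synthetase splits succinyl-CoA and stores the energy as a nucleoside triphosphate. Its alpha subunit, common to both versions of the enzyme, comes from Suclg1 (NCBI Gene 56451, chromosome 6, 73248505 to 73276907, plus strand). Suclg1 was at 122, 110.0 and 107 CPM in controls and 124, 145 and 137 CPM in knockouts, and the groups did not overlap, although control replicate 1 and knockout replicate 1 lay close together. The log2 fold change was 0.26 ± 0.13 (SE), the interval 0.978-fold to 1.47-fold and the adjusted p 0.319 in edgeR.

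Suclg2 (NCBI Gene 20917, chromosome 6, 95473009 to 95718858, minus strand) encodes the beta subunit of the GTP-forming version. It was at 141, 124 and 150 CPM in controls and 129, 142 and 150 CPM in knockouts. The groups lay over each other, with means of 138 ± 13.1 and 140.3 ± 10.7 CPM (SD, n = 3), a log2 fold change of 0.02 ± 0.14 (SE), an interval of 0.820-fold to 1.25-fold and an adjusted p of 0.947 in edgeR. The log2 value for Suclg2 was negative in 7 of 18 alternatives, among them those without control replicate 2 (-0.05) and without knockout replicate 3 (-0.03), upper-quartile scaling (-0.02), log2(FPKM + 1) values (-0.07) and removal of the length and GC trends (-0.02).

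Sucla2, which encodes the beta subunit of the ATP-forming version, was at 59.4, 53.7 and 66.5 CPM in controls and 82.8, 84.0 and 88.1 CPM in knockouts. All knockouts were above all controls. Its log2 fold change of 0.51 ± 0.13 (SE) was the largest of the cycle genes compared, and its adjusted p was 0.0888 in edgeR. DESeq2 gave an adjusted p of 0.0184, and the q value in the authors' deposited table was 0.0198. Without control replicate 3 the adjusted p of Sucla2 in edgeR was 0.0366, but without control replicate 2 it was 0.275, and without knockout replicates 1, 2 and 3 it was 0.222, 0.294 and 0.285. Sucla2 passed in 2 of 18 alternatives.

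The ratio of Suclg2 to Sucla2 within a library does not depend on how libraries are scaled. In TPM (a level normalized for length), it was 1.96, 1.79 and 1.70 in control libraries and 1.196, 1.290 and 1.3005 in the knockouts. Suclg2 transcripts outnumbered those of Sucla2 in all 6 libraries, and by less in each knockout than in any control. The mean log2 ratio was 0.86 ± 0.10 in controls and 0.33 ± 0.07 in knockouts (SD, n = 3), a difference of -0.52. The exact two-sided permutation test gave p = 0.1, the smallest that 3 against 3 allows, and 0.5 after Benjamini-Hochberg adjustment over the 5 ratios compared. Leaving out any library kept the difference between -0.57 and -0.47.

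The other 4 ratios had overlapping groups, and how often groups fail to overlap over other gene pairs was not computed. That of Suclg1 to the sum of both beta subunits was 1.13, 1.19 and 0.966 in controls and 1.12, 1.23 and 1.10 in knockouts (exact permutation p = 0.6). Dlst to Ogdh was 1.22, 0.921 and 1.01 against 0.911, 1.04 and 1.06 (exact permutation p = 0.8). Idh3a to Idh3g was 0.155, 0.109 and 0.142 against 0.160, 0.151 and 0.148 (exact permutation p = 0.3), and Idh3a to Idh3b was 0.0850, 0.0649 and 0.0878 against 0.0788, 0.0747 and 0.0743 (exact permutation p = 0.9). Transcripts of the catalytic subunit of isocitrate dehydrogenase were the scarcer ones in every library, in both groups.

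**Figure D2:**
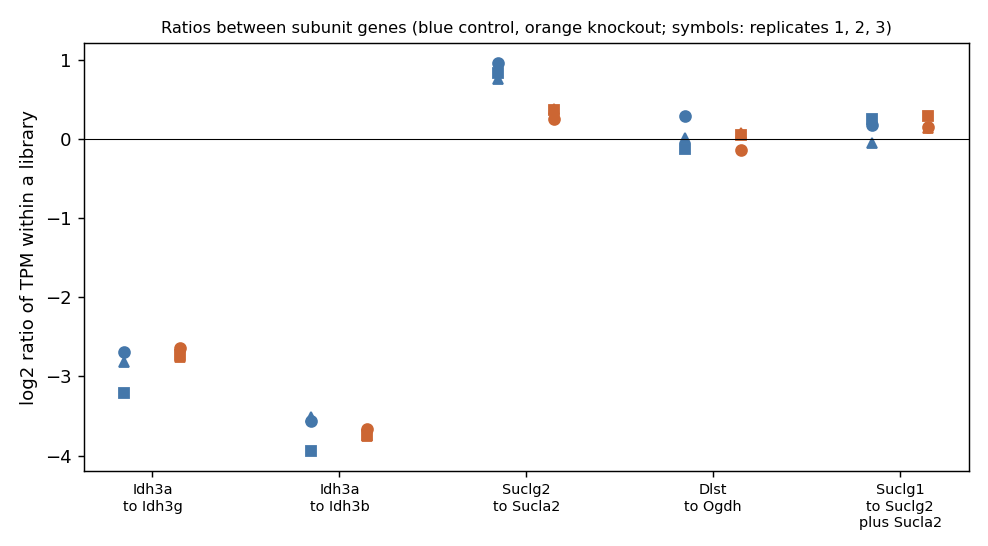
Log2 ratio of TPM between subunit genes within each library (vertical axis), for 5 ratios, with controls in blue, knockouts in orange and symbols for replicates. Only the ratio of Suclg2 to Sucla2 has groups that do not overlap (exact permutation p = 0.1, and 0.5 after Benjamini-Hochberg adjustment). Its control libraries run from 0.77 to 0.97 and its knockout libraries from 0.26 to 0.38. No share over other gene pairs was computed.

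Fumarase, encoded by Fh1 (NCBI Gene 14194, chromosome 1, 175601378 to 175625635, minus strand), hydrates fumarate to malate and is made for both the mitochondrion and the cytosol from this gene. Its level was 256, 161 and 190.0 CPM in controls and 259, 256 and 254 CPM in knockouts. The knockouts were nearly equal, and control replicate 1 lay among them while the other controls were lower. The mean was 202 ± 49.0 in controls and 256 ± 2.63 CPM in knockouts (SD, n = 3). The log2 fold change was 0.34 ± 0.18 (SE), its interval 0.960-fold to 1.67-fold and its adjusted p 0.339 in edgeR. Single controls moved this value most: it was 0.55 (adjusted p = 0.0593 in edgeR) without control replicate 1 and 0.20 without control replicate 2.

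Mdh2 (NCBI Gene 17448, chromosome 5, 135778649 to 135790386, plus strand) encodes the mitochondrial malate dehydrogenase, which closes the cycle by making oxaloacetate. It was at 241, 207 and 219 CPM in controls and 241, 235 and 226 CPM in knockouts. Control replicate 1 made the groups overlap. The fitted log2 difference was 0.07 ± 0.13 (SE), its interval 0.860-fold to 1.29-fold and its adjusted p 0.782 in edgeR. The log2 value for Mdh2 was 0.14 without control replicate 1, 0.03 without control replicate 2 and 0.18 with the length and GC trends removed.

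Between fumarase and the succinyl-CoA step stands succinate dehydrogenase, which is also complex II of the respiratory chain and has 4 subunit genes. Sdhd, a membrane anchor, was at 66.1, 81.2 and 99.2 CPM in controls and 114, 115 and 115 CPM in knockouts (log2 fold change 0.48 ± 0.16, SE; adjusted p = 0.163 in edgeR). Sdhd passed in 1 of 18 alternatives, without control replicate 3 (adjusted p = 0.0394 in edgeR), while the other libraries left out gave 0.189 to 0.390. Sdha, the flavoprotein, had a log2 fold change of 0.29 ± 0.18 (SE), Sdhb, the iron-sulfur subunit, of -0.11 ± 0.19 (SE) and Sdhc, the other anchor, of -0.14 ± 0.14 (SE). The groups of these 3 overlapped. None of the 7 other cycle genes compared passed in edgeR, and 2 of them (Sucla2 and Sdhd) had an unadjusted p under 0.05. DESeq2 called 1 of the 7, Sucla2, and 645 of all 12173 tested genes.

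**Figure D3:**
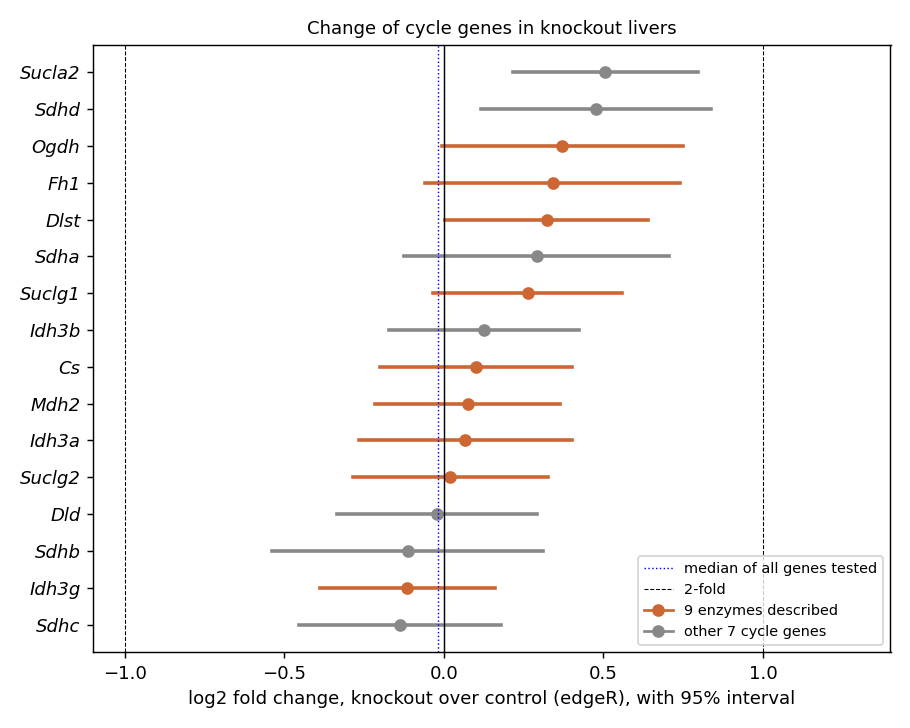
Log2 fold change of knockout over control (horizontal axis) with its 95% interval for 16 cycle genes, the 9 described in orange and the other 7 in gray. The orange values run from -0.11 for Idh3g to 0.37 for Ogdh, and all intervals lie inside the dashed lines at a 2-fold change.

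Levels of different genes can be compared only per length, here in FPKM (fragments per kilobase of transcript, scaled to library size). Over all 6 libraries Mdh2 had the highest mean, 222 FPKM, with single libraries from 211 to 237. Fh1 followed at 166 FPKM (125 to 190.0) and Suclg1 at 109 FPKM (96.5 to 125). Idh3g stood at 68.8, Suclg2 at 58.1, Dlst at 52.5, Ogdh at 51.9 and Cs at 35.0 FPKM. Idh3a was lowest at 9.82 FPKM (8.49 to 10.7), below Dld, the next of the cycle genes compared, at 28.9. Each of the first 3 was higher than the next member in 6 of 6 libraries, with ranges that did not overlap, although the lowest Fh1 value (124.96) and the highest Suclg1 value (124.85) nearly touched. Ranges of Idh3g and Suclg2, Suclg2 and Dlst, Dlst and Ogdh, and Ogdh and Cs overlapped. Dlst exceeded Ogdh in 4 of 6 libraries, so their order was not the same in all libraries.

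**Figure D4:**
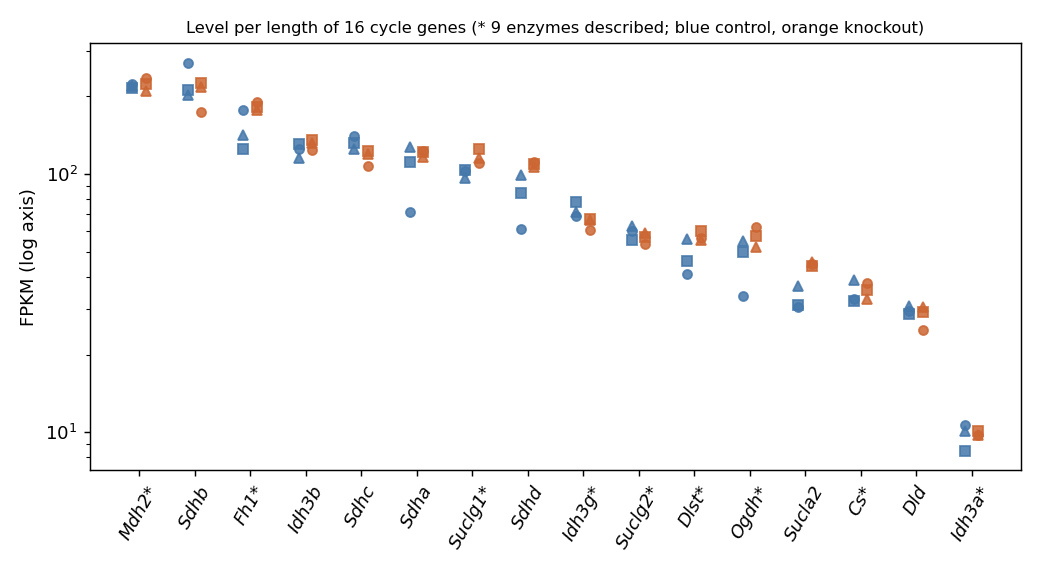
FPKM on a log axis for 16 cycle genes, ordered by their mean over 6 libraries, with controls in blue and knockouts in orange and an asterisk on the 9 genes described. Idh3a, at 8.49 to 10.7 FPKM, stands apart below the other cycle genes shown.

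The 9 genes summed to 1206, 1078 and 1217 CPM in controls and 1335, 1368 and 1325 CPM in knockouts, so the sums did not overlap. The summed CPM of 6 of the 8 other pathway lists did not overlap either. These were acetyl-CoA entry, filling and draining reactions, carriers, lipoate synthesis and assembly, import and matrix proteins, and regulators. A sum follows its most abundant genes, and no share over other gene sets was computed. Gene by gene, groups did not overlap in 2 of 10 genes of acetyl-CoA entry, 2 of 17 filling and draining and 2 of 9 carriers. For lipoate synthesis and assembly it was 6 of 13, for import and matrix proteins 4 of 16 and for regulators 8 of 14. Over all tested genes the share was 25.2%. On the TPM scale the sums of the 9 were 818, 866 and 993 in controls and 1068, 1013 and 977 in knockouts. These overlapped through control replicate 3, and TPM sums of the other lists were not computed. Over the 6 libraries log2 CPM correlated positively in 28 of the 36 pairs of members, with a median Pearson r of 0.34, and r ran from -0.71 (Idh3g and Ogdh) to 0.93 (Fh1 and Mdh2). Ogdh and Dlst had an r of 0.85. Among the 16 cycle genes compared, Ogdh was most like Sdhd (r = 0.96), Dlst also most like Sdhd (0.94), Suclg1 most like Idh3b (0.91), Suclg2 most like Dld (0.84), Idh3a most like Fh1 (0.83), Idh3g most like Sdhc (0.80) and Cs most like Dlst (0.79). These values describe 6 libraries that share their genotype difference and the length trends given above.

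Reactions around the cycle were described with lists that were chosen with earlier results of these data known. Entry of acetyl-CoA through pyruvate dehydrogenase is governed by kinases that switch the complex off and phosphatases that switch it on. Of 10 tested genes of this step, 2 rose and none fell. Pdk4, a kinase, went from 3.69 ± 1.12 to 33.8 ± 16.4 CPM (SD, n = 3). Its adjusted p in edgeR was 0.0082. Pdp2, a phosphatase, went from 21.2 ± 2.16 to 40.8 ± 4.43 CPM (SD, n = 3), a log2 fold change of 0.95 ± 0.14 (SE), and its adjusted p in edgeR was 0.015. Without control replicate 2 or knockout replicates 1 and 2 the adjusted p of Pdp2 was 0.0614, 0.0752 and 0.0922, and with limma on log2(TPM + 1) values it was 0.0875. The list's median log2 value was 0.21.

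Among 17 genes of reactions that fill or drain the cycle, 1 rose, Pck1, the enzyme that makes phosphoenolpyruvate from oxaloacetate (log2 fold change 0.76 ± 0.15, SE; adjusted p = 0.0413 in edgeR), and none fell. Pck1 no longer passed without control replicate 2 (adjusted p = 0.148) or without knockout replicates 1, 2 and 3 (0.156, 0.171 and 0.158), with upper-quartile scaling (0.0524), or with limma on log2(FPKM + 1), log2(FPKM + 0.1) and log2(TPM + 1) values (0.0688, 0.0664 and 0.0767). Gls2, the liver glutaminase, had the next smallest p, with a log2 fold change of 0.42 ± 0.14 (SE) and an adjusted p of 0.161. The median of the list was 0.13.

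Of 5 tested counterparts of cycle enzymes outside the NAD-linked cycle, none passed in edgeR. Of these, 1 had an unadjusted p under 0.05 and 1 was called by DESeq2, which called 645 of all 12173 tested genes. Dhtkd1, which encodes the decarboxylase of the related oxoadipate complex, was at 53.7 ± 25.7 CPM in controls and 25.5 ± 2.07 CPM in knockouts (SD, n = 3; log2 fold change -1.08 ± 0.28, SE; adjusted p = 0.0956 in edgeR). Aco1, which encodes a cytosolic enzyme that can also bind iron-responsive elements in RNA, had a log2 fold change of 0.43 ± 0.20 (SE). Among 9 tested carriers that move cycle intermediates and pyruvate, none passed in edgeR, 2 had an unadjusted p under 0.05 and DESeq2 called 2. The 2 with the smallest p were the aspartate-glutamate carriers Slc25a12 (log2 fold change 0.76 ± 0.19, SE; adjusted p = 0.0889) and Slc25a13 (0.55 ± 0.17, SE; adjusted p = 0.135).

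**Figure D5:**
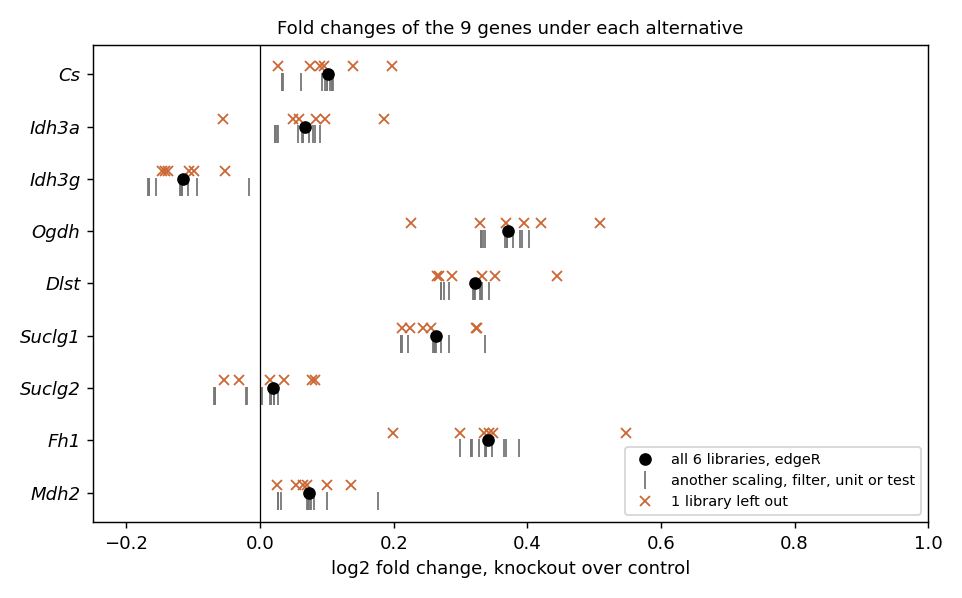
Log2 fold change of each of the 9 genes (horizontal axis) in the fit of all 6 libraries (black), under other scalings, filters, units and tests (gray bars) and with 1 library left out (orange crosses). Ogdh, Dlst, Suclg1, Fh1, Cs and Mdh2 stay above 0 throughout, Idh3g below, and Idh3a and Suclg2 fall on both sides.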

How the data were processed

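Liver RNA from 3 control and 3 knockout samples was sequenced. Per the submitters' processing notes, HISAT2, Bowtie2 and RSEM 1.3.1 were used with GRCm38, and how reads were trimmed or strand was counted is not given in the sources used here. Estimated counts per gene, FPKM and TPM were deposited by the authors, and per the file headers a DESeq2 comparison with log2 fold changes, p-values and q-values. Each column was assigned to the sample whose label has its group and number.

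Estimated counts were rounded (4.55% to 4.98% of deposited values lay over 0.01 from a whole number). The floor for an undetected gene, 3 counts, was 0.161 to 0.193 CPM. Reads carry no molecular identifiers, so floors cover counting error only. Genes were kept with filterByExpr, scaled with TMM and tested with edgeR 4.0.16 (quasi-likelihood, R 4.3.3). The model held genotype alone, and p-values were adjusted by Benjamini-Hochberg across the 12173 genes. Standard errors came from the F statistic and 95% intervals from the t distribution. The fit was tested on simulated data first. It called 69.3% of genes with a true log2 change of 1 in either direction and 97.3% of those with 2. At a mean log2 CPM of at least 4 these shares were 82.9% and 100%. Of all calls at an adjusted p under 0.05, 7.14% were false. Correlations used log2 CPM with a prior count of 2.

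The enzymes and lists were chosen with earlier results of these data known. The text names Selenoo, 16 cycle genes (1 item is not reported here), called list members, the 2 list members with the smallest p, and the 5 abundant genes (mean log2 CPM of at least 4) most correlated with the enzymes. Alternatives covered scaling, filters, DESeq2 1.42.0, limma 3.58.1 (voom, FPKM and TPM with pseudocounts of 1 or 0.1), a replicate block, a threshold of 0.1 and each library left out. Removal of trends on transcript length and GC content (GENCODE M21, found for 98.1% of tested genes) and FPKM for the ratios were chosen after seeing the data.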

Additional observations from a re-analysis of the deposited data

How the results depend on the processing

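None of the 9 enzymes passed the threshold in the main comparison or in any of 19 alternatives. Of 18 alternatives that give a fold change, 6 enzymes were positive in all and Idh3g negative in all, while Idh3a (-0.06 without control replicate 2) and Suclg2 (-0.07 to 0.08) took both signs. The number of genes called among all tested, 181, moved more. It was 330 without the filter on low counts, 645 with the DESeq2 Wald test, 110 and 79 with limma on log2(FPKM + 1) and log2(TPM + 1), 13 (3 higher and 10 lower) with limma on unfiltered log2(FPKM + 1), 513 at an adjusted p of 0.1, and 292 with length and GC trends removed. It ran from 43 without knockout replicate 2 to 668 without control replicate 3, and the cause was not tested. On log2(FPKM + 0.1) the split was 52 higher and 74 lower, with upper-quartile scaling 80 and 94, against 94 and 87. With the replicate number as a block 87 genes were called and none of the 9, and the adjusted p was 0.0704 for Pdp2, 0.120 for Pck1 and 0.197 for Sucla2. With limma on unfiltered log2(FPKM + 1) values it was 0.0896 for Pdk4, 0.104 for Pdp2, 0.130 for Pck1 and 0.1004 for Ppargc1a. Same-numbered libraries deviated from their group means with r of -0.16, -0.08 and -0.08. Deviations within a group of 3 sum to 0, so these values do not settle whether the numbers are more than a label. No library correlated best with its own number. With 3 libraries a group, the standard errors were 0.12 to 0.18 on the log2 scale for the 9, and 8 of the 9 intervals held 0. The interval of Dlst did not hold 0 (unadjusted p = 0.0477 and adjusted p = 0.264 in edgeR). After adjustment none of the 9 changes could be told from 0, the largest being that of Ogdh (log2 0.37, adjusted p = 0.278 in edgeR).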

Other observations

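Genes that serve the cycle enzymes without belonging to the cycle were counted from lists, also chosen with earlier results of these data known. Of 13 genes of lipoate synthesis and of assembly factors, none passed in edgeR or DESeq2, and 3 had an unadjusted p under 0.05. Mecr, a mitochondrial enoyl reductase on the path to lipoate, had a log2 fold change of 0.46 ± 0.14 (SE, adjusted p = 0.124 in edgeR), and Lipt1, a lipoyl transferase, of -0.39 ± 0.16 (SE, adjusted p = 0.223). Of 16 genes of mitochondrial import, porins, prohibitins, matrix chaperones and matrix proteases, none passed in edgeR or DESeq2. In edgeR 3 had an unadjusted p under 0.05, 2 of them higher and 1 lower. The median log2 value was 0.09, near the 0.10 of the 9 enzymes. Tomm70a, an import receptor (0.42 ± 0.16, SE), and Timm44, which anchors the import motor (0.35 ± 0.13, SE), had the smallest p.

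Of 14 regulators of mitochondrial genes, 1 rose, Ppargc1a, a coactivator of mitochondrial gene expression, from 4.73 ± 0.66 to 10.8 ± 0.94 CPM (SD, n = 3; adjusted p = 0.0131 in edgeR), and none fell. DESeq2 called 4 of the 14, 2 higher and 2 lower, and at an adjusted p under 0.1 edgeR called 3, 1 higher and 2 lower. Over all 12173 tested genes these settings called 645 and 513. The adjusted p of Ppargc1a was 0.0586 with limma on log2(TPM + 1) values. It was 0.0509 when control replicate 2 was left out, and 0.0623 and 0.0582 for knockout replicates 2 and 3. Esrrb, an estrogen-related receptor, had a log2 fold change of -1.47 ± 0.32 (SE, adjusted p = 0.0606 in edgeR) at a mean of 1.61 CPM in controls and 0.578 CPM in knockouts.

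The 5 genes whose log2 CPM followed the mean standardized level of the 9 enzymes most closely over the 6 libraries, among 5381 candidates, were Strn3 (r = 0.993), Osbpl8 (0.990), Hadhb (0.987), Etfdh (0.984) and Efr3a (0.977). Hadhb encodes a subunit of the mitochondrial trifunctional protein of fatty acid oxidation, and Etfdh the dehydrogenase that passes electrons from that pathway to ubiquinone. These were picked as the highest of many values, and none of the 5 passed in edgeR (adjusted p of 0.344 to 0.654). The spread of log2 CPM within a group was larger among controls than knockouts for 7 of the 9 enzymes, with a median SD of 0.17 against 0.07, and for 70.3% of all tested genes.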
